A study of Mus musculus with 12 samples.

Results

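The steroidogenic machinery of the adrenal cortex was examined in the fetal mouse ovary through 10 genes: the ACTH receptor gene Mc2r and its accessory gene Mrap, the cholesterol transporter gene Star, the enzyme genes Cyp11a1, Hsd3b1, Cyp17a1, Cyp21a1 and Cyp11b1, and the electron donor genes Fdx1 and Fdxr. They were chosen by name, with earlier results of these data known, and all 10 were found among the 54532 gene rows of the count table. Ovaries came from E15.5 Tg(Pou5f1-EGFP)2Mnn embryos, in which a Pou5f1-driven GFP transgene marks germ cells, and the dams had been injected intraperitoneally with the glucocorticoid receptor agonist dexamethasone (dex, 10 µg per g of body weight) or with saline once a day from E12.5 to E15.5, 4 times in all. FACS gave GFP-positive germ cells and all remaining GFP-negative cells (somatic cells), so the 12 RNA-seq libraries formed 4 groups of 3: germ cells after saline, germ cells after dex, somatic cells after saline and somatic cells after dex. Each library pooled ovaries over several litters, and the somatic fraction is a mixture of pregranulosa, stromal, endothelial, blood and other cells.

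In the adrenal cortex, pituitary ACTH binds MC2R, a G protein-coupled receptor that reaches the cell surface only with the help of MRAP, and the resulting cAMP signal raises steroid output. STAR moves cholesterol to the inner mitochondrial membrane, CYP11A1 cleaves it to pregnenolone, and 3-beta-hydroxysteroid dehydrogenases, CYP17A1, CYP21A1 and CYP11B1 convert it further, CYP21A1 and CYP11B1 leading to corticosteroids. CYP11A1 and CYP11B1 sit in mitochondria and receive electrons from NADPH through ferredoxin reductase (FDXR) and ferredoxin 1 (FDX1). Glucocorticoids lower ACTH release from the pituitary, and the fetal ovary is known to make little steroid before folliculogenesis.

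RefSeq promoter windows (GRCm38.p6) were at hand for 4 of the genes, Hsd3b1, Cyp11a1, Fdx1 and Fdxr. They are printed because Hsd3b1 and Cyp11a1 RNA lay mainly in somatic cells whereas Fdx1 and Fdxr RNA was plentiful in both fractions. Each run holds the 250 bases before a start site, 5′ to 3′ on the gene's strand, with CpG dinucleotides in capitals. The Hsd3b1 window lies at chr3:98859795-98860044 (minus strand), the Cyp11a1 window at chr9:58014702-58014951 (plus strand), the Fdx1 window at chr9:51963603-51963852 (minus strand) and the Fdxr window at chr11:115276970-115277219 (minus strand).
Hsd3b1: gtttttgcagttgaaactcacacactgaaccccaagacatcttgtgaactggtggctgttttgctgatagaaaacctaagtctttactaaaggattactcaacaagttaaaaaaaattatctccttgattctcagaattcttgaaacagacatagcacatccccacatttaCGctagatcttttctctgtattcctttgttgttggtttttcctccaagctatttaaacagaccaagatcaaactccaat
Cyp11a1: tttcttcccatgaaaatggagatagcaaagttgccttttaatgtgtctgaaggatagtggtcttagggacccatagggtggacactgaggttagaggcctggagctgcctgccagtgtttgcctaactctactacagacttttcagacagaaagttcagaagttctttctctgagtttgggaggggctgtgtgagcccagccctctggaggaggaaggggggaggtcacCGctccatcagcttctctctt
Fdx1: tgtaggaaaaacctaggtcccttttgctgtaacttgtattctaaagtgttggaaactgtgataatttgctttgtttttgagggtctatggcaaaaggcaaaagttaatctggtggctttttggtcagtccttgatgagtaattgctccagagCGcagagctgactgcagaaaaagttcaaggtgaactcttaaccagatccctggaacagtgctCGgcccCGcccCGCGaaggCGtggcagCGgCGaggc
Fdxr: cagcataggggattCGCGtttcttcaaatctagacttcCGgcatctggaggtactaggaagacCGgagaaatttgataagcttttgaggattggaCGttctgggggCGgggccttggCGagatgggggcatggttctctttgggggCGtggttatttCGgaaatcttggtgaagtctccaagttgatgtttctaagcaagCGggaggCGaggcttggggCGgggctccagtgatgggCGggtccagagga

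The windows of Hsd3b1 and Cyp11a1 each held 1 CpG, and 7.87% of the 32817 RefSeq windows of this length held fewer. The Fdx1 window held 8 CpG and the Fdxr window 13, against a median of 6 over all windows, and 57.0% and 68.5% of windows held fewer. GC content was 50.4% for Cyp11a1, 48.0% for Fdx1 and 54.8% for Fdxr, near the median of 52.4%, and well below it for Hsd3b1 at 36.4%. A second, upstream RefSeq start of Cyp11a1, 8387 bases outside the deposited gene interval, had 4 CpG and a GC content of 57.6%. Searched on both strands, neither the NR5A1 recognition motif AAGGTCA, nor the glucocorticoid receptor motif AGAACA (a single arm of its palindromic element), nor the CRE TGACGTCA occurred in any of the 5 windows. These letters are in 4.08%, 16.1% and 1.55% of all windows, respectively.

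Mrap, the member with the largest fitted response to dex, is encoded at 16:90738207-90749785 on the plus strand. Its coding transcript Mrap-201 (GENCODE, GRCm38) has 3 exons, all with coding sequence, and 381 coding bases before the stop codon. The first 300 coding bases follow, with the start codon in capitals.
Mrap: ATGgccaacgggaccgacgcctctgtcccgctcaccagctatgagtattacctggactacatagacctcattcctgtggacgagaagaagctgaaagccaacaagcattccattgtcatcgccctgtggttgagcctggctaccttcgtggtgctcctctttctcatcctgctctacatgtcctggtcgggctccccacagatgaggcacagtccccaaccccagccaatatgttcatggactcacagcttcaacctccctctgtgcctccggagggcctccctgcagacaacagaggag

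The libraries held 14658503 to 18245507 counts, so that 3 counts, taken as the floor of detection, equalled 0.169 to 0.201 CPM (depth-scaled counts, with TMM factors). No pair of libraries had identical counts. The summed level of 8 germ cell markers was 2560 to 3100 CPM in germ cell libraries and 2.96 to 20.6 CPM in somatic libraries. The 10 pregranulosa markers summed to 795 to 1120 CPM in somatic libraries and 41.4 to 131 CPM in germ cell libraries, and for the 8 stromal and interstitial markers the sums were 14700 to 19100 CPM and 97.3 to 211 CPM. Both fractions therefore carried the markers of their labels, with low levels of the other fraction. Among the adrenal and Leydig markers outside the 10 genes, Hsd17b3 and the aldosterone synthase gene Cyp11b2 were at or under the floor in all somatic libraries. The medullary chromaffin markers, 6 in number, summed to at most 2.53 CPM there.

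**Figure D1:**
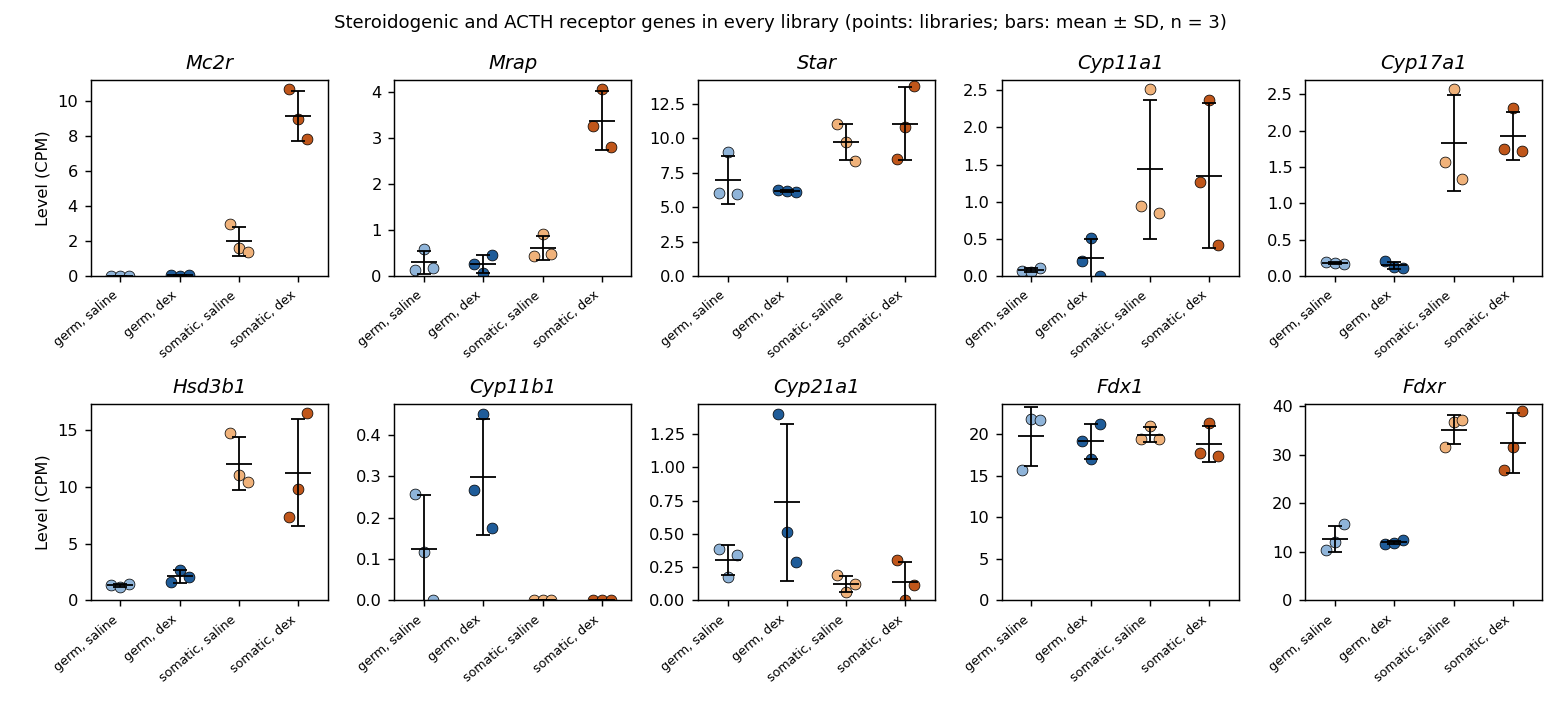
Level of each of the 10 genes (vertical axis, CPM, starting at 0) in the 4 groups; points are libraries and bars show the mean ± SD (n = 3). Mc2r and Mrap in somatic cells after dex lie above all other groups, whereas for Star and the enzyme genes the dex and saline somatic libraries overlap.

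Does dex change the RNA of this pathway in the somatic cells of the fetal ovary? Of the 10 genes, 8 could be tested in somatic cells and 2, the ACTH receptor gene Mc2r and its accessory gene Mrap, were higher after dex. Mc2r rose 4.59-fold and Mrap 5.49-fold, whereas no call was made for Star, the enzyme genes or the electron donor genes. Across all 16556 genes tested, 4.81% were called higher and 3.36% lower after dex. The 10 genes were chosen with earlier results of these data known, so the 2 calls are no independent support.

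Mc2r (ENSMUSG00000045569, 18:68406907-68429251, minus strand) was read at 2.96, 1.61 and 1.40 CPM in the saline somatic libraries, from 47, 25 and 23 counts. After dex it was read at 10.7, 8.96 and 7.85 CPM, from 177, 159 and 132 counts. The lowest dex library stood 2.65-fold above the highest saline library, so the groups did not overlap. The mean went from 1.99 ± 0.85 CPM to 9.17 ± 1.43 CPM (SD, n = 3 each), or a log2 fold change of 2.20 (SE 0.27, 95% interval 1.61 to 2.78, adjusted p = 0.000192, edgeR quasi-likelihood test with Benjamini-Hochberg (BH) adjustment). In bulk libraries, more RNA per cell and more cells that carry the transcript cannot be told apart.

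Mrap (ENSMUSG00000039956) was read at 0.440, 0.903 and 0.485 CPM after saline, from 7, 14 and 8 counts. After dex the values were 3.26, 4.06 and 2.80 CPM, from 54, 72 and 47 counts. Every dex library was at least 3.10 times the highest saline library. Mrap passed the low-count filter through its dex libraries, so its call is no independent support. With no filter it was also called (adjusted p = 1.82e-07, edgeR with BH). That setting called many more genes in germ cells, as given below, so its smaller p adds no support. The log2 fold change was 2.46 (SE 0.39, 95% interval 1.61 to 3.30, adjusted p = 0.00138, edgeR with BH). Over the 10 alternative fits the Mc2r log2 fold change stayed between 1.99 and 2.59 and that of Mrap between 2.27 and 2.84, with adjusted p at most 0.00227 and 0.0133.

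Per gene length, Mc2r lay below Star after saline and in the range of Hsd3b1 after dex. Mc2r was at 1.23 ± 0.53 FPKM (fragments scaled to exon length and depth) after saline and 5.68 ± 0.92 FPKM after dex, and Mrap at 0.374 ± 0.155 and 2.06 ± 0.41 FPKM (SD, n = 3). The ratio of Mc2r to Mrap in FPKM was 6.80, 1.81 and 2.91 in saline libraries and 3.32, 2.24 and 2.84 in dex libraries, so these ratios overlapped between treatments. The other melanocortin receptor and accessory genes were not called. Mrap2, an accessory gene of several melanocortin receptors, had a log2 fold change of 1.5 (adjusted p = 0.0617, edgeR with BH), and Mc4r and Mc1r had 0.70 and -0.11 (adjusted p = 0.455 and 0.949). Mc3r, Mc5r and the gonadotropin receptor gene Fshr fell under the low-count filter.

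Other markers moved between the same libraries, where 4.81% of all genes tested were called higher and 3.36% lower after dex. Of the 6 macrophage markers, 4 were lower after dex (3 to 5 on leaving out single libraries), and their sum was 118 to 166 CPM after saline and 29.4 to 78.5 CPM after dex. Of the 8 germ cell markers, 1, Dazl, was called higher in somatic cells after dex, from 0.971 to 1.35 CPM to 12.6 to 12.9 CPM. The other 7 germ cell markers summed to 1.76 to 4.84 CPM after saline and 2.54 to 7.77 CPM after dex. Mc2r was at 0 or 1 count in every germ cell library. Of the 5 perivascular markers, Cspg4 was higher (log2 fold change 1.06, adjusted p = 2.86e-05, edgeR with BH) and Mcam lower (-0.45, adjusted p = 0.00176), with sums of 517 to 526 CPM after saline and 500 to 624 CPM after dex. Of the 8 stromal and interstitial markers, 1 was higher, Pdgfra (0.62, adjusted p = 0.000101), and 1 was lower, with sums of 15700 to 17600 CPM and 14700 to 19100 CPM. Of the 6 endothelial markers, Emcn was higher and Cdh5 and Tie1 lower (304 to 354 CPM after saline and 278 to 306 CPM after dex), and on leaving out single libraries 0 or 1 was higher and 0 to 2 lower. Of the 10 pregranulosa markers, 1, Wnt4, was lower (-0.24, adjusted p = 0.0373), with sums of 1010 to 1100 CPM and 795 to 1120 CPM. The 4 erythroid markers, with sums of 4470 to 7370 CPM and 1940 to 9730 CPM, the 4 surface epithelium markers (390 to 470 and 333 to 489 CPM) and the 4 mesonephros markers (41.9 to 47.6 and 33.1 to 53.5 CPM) gave 0 calls by edgeR, 0 at an unadjusted p under 0.05 and 0 by DESeq2.

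The part of macrophage, perivascular, stromal or other cell proportions in the Mc2r and Mrap values was not tested. The defining adrenal cortex gene Cyp11b1 was at 0 counts in all 6 somatic libraries. The chromaffin list summed to 1.01 to 2.00 CPM after saline and 1.07 to 2.53 CPM after dex. The remaining Leydig and adrenal list (8 genes) summed to 25.8 to 30.4 and 22.2 to 34.7 CPM. Of its 3 tested genes, 0 were called by edgeR, 0 had an unadjusted p under 0.05 and 0 were called by DESeq2. In saline somatic cells Lhcgr averaged 1.90, Hsd3b6 0.418 and Insl3 0.250 CPM, and Cyp11b2 was at 0. Most of the sum therefore came from other genes of the list, which include the inhibin gene Inha.

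Star, which sets the rate of cholesterol entry into steroid synthesis (8:25806555-25815982, plus strand), was read at 11, 9.74 and 8.37 CPM in somatic cells after saline and 8.52, 10.8 and 13.8 CPM after dex. The groups overlapped, with 1 dex library above all saline libraries and the other two among them. The log2 fold change was 0.18 (95% interval -0.22 to 0.59, adjusted p = 0.646, edgeR with BH). The interval spans folds from 0.857 to 1.5, so a rise of the size seen for Mc2r lay outside it.

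Hsd3b1, a 3-beta-hydroxysteroid dehydrogenase gene (3:98852194-98859794, minus strand), was read at 14.7, 11 and 10.4 CPM after saline and 7.37, 9.86 and 16.5 CPM after dex in somatic cells. The dex libraries lay on both sides of the saline libraries, with replicate 3 highest. Its log2 fold change was -0.10 (95% interval -0.63 to 0.43, adjusted p = 0.862, edgeR with BH). The same dex library also had the highest Star (13.8 CPM), Fdxr (39.0 CPM) and pregranulosa marker sum (1120 CPM, against 795 and 830 CPM in the other dex libraries). Hsd3b1 has close paralogs, and reads shared with them could have been split by the counting, so its level is uncertain to that extent.

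The other enzyme genes were sparse. Cyp11a1, the side-chain cleavage enzyme gene (9:58006411-58027023, plus strand, overlapping Gm17322 on the same strand), had 15, 39 and 14 counts in somatic cells after saline and 21, 42 and 7 counts after dex. In CPM these were 0.944, 2.52 and 0.850, and 1.27, 2.37 and 0.416, a spread within each group wider than the gap between the groups. The log2 fold change of -0.08 had a 95% interval of -1.35 to 1.19 (adjusted p = 0.961, edgeR with BH), which spans folds from 0.393 to 2.28. Cyp17a1, which carries the hydroxylase and lyase steps towards cortisol and androgens (19:46667165-46672974, minus strand), had 25, 40 and 22 counts after saline and 29, 41 and 29 after dex, with a log2 fold change of 0.08 (95% interval -0.72 to 0.87, adjusted p = 0.937). Replicate 2 was highest in both groups for both genes.

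The last steps towards corticosteroids were at or near the floor. Cyp21a1, the 21-hydroxylase gene (17:34801348-34804561, minus strand, overlapping Tnxa on the opposite strand), had 3, 1 and 2 counts in somatic cells after saline and 5, 0 and 2 after dex. Cyp11b1, the 11-beta-hydroxylase gene (15:74834125-74841643, minus strand, overlapping Gml2 on the opposite strand), had 0 counts in all 6 somatic libraries, which allows at most the floor of 3 counts per library. Neither was tested there. Cyp21a1 has a near-identical pseudogene copy in the genome, and its few counts are uncertain for that reason.

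Fdx1 and Fdxr, the electron donors of the mitochondrial P450 enzymes, were well above the floor in every library. Fdx1 (9:51943306-51963556, minus strand) was read at 19.4, 21.0 and 19.4 CPM after saline and 17.7, 21.4 and 17.4 CPM after dex in somatic cells. Fdxr (11:115268024-115277050, minus strand) was read at 31.6, 36.7 and 37.1 CPM after saline and 26.8, 31.5 and 39.0 CPM after dex. The treatment groups of both genes overlapped. Their log2 fold changes were -0.09 (95% interval -0.35 to 0.18, adjusted p = 0.754) and -0.12 (95% interval -0.40 to 0.15, adjusted p = 0.657), respectively, in edgeR with BH.

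**Figure D2:**
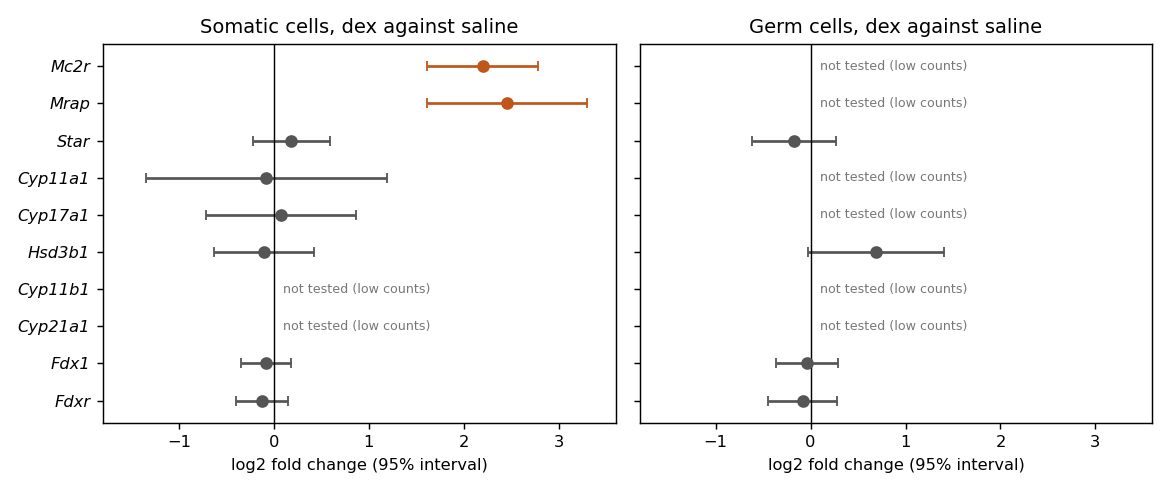
Log2 fold change of dex against saline (horizontal axis) with its 95% interval from edgeR for each gene, in somatic cells (left) and germ cells (right); orange marks an adjusted p of at most 0.05. Only the intervals of Mc2r (1.61 to 2.78) and Mrap (1.61 to 3.30) lie clear of 0, both in somatic cells.

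Did germ cells respond in the same genes? In germ cells 4 of the 10 genes passed the low-count filter, Star, Hsd3b1, Fdx1 and Fdxr, and 0 were called by edgeR, with 0 at an unadjusted p under 0.05 and 0 called by DESeq2. Across all 16857 genes tested in germ cells, 0.208% were called in either direction. Hsd3b1 had the largest log2 fold change of the 4 tested genes in size. Its values were 1.36, 1.17 and 1.43 CPM after saline (21, 20 and 25 counts) and 1.61, 2.71 and 2.04 CPM after dex (24, 42 and 35 counts). The groups did not overlap, but the log2 fold change of 0.69 (95% interval -0.02 to 1.41) had an adjusted p of 0.449 (edgeR with BH). In the same germ cell libraries the pregranulosa markers summed to 48.1, 77.5 and 93.6 CPM after saline and 41.4, 131 and 108 CPM after dex. All 10 of these markers had a positive log2 fold change and 0 were called. The part of somatic RNA in the Hsd3b1 values was not tested. Star was at 6.98 ± 1.73 CPM after saline and 6.16 ± 0.06 CPM after dex (SD, n = 3), with a log2 fold change of -0.17 (adjusted p = 0.784).

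For Fdx1 and Fdxr in germ cells the log2 fold changes were -0.04 (95% interval -0.36 to 0.29) and -0.08 (95% interval -0.45 to 0.28), with adjusted p = 0.952 and 0.883 in edgeR with BH. Mc2r had 0, 0 and 0 counts in germ cells after saline and 1, 0 and 1 after dex. Mrap had 2, 10 and 3 counts after saline and 4, 1 and 8 after dex, so the level in germ cells straddled the floor in both treatments. Cyp21a1 had 6, 3 and 6 counts after saline and 21, 8 and 5 after dex, and Cyp11b1 4, 2 and 0 and 4, 7 and 3. Cyp11a1 had 0 to 8 counts and Cyp17a1 2 or 3 counts in each germ cell library. None of these 6 genes was tested in germ cells.

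The dex effect itself was compared between the fractions for 8 of the 10 genes. Of these, Mc2r, Mrap, Cyp11a1 and Cyp17a1 had at most 10 counts in any germ cell library. They passed the filter only through somatic libraries, so a missing call decides nothing about a difference for them. By edgeR 0 of the 8 genes were called and 1 had an unadjusted p under 0.05. Across all 19390 genes tested, 1.62% were called. DESeq2 also called 0, but it gave no adjusted p for Mrap, Cyp11a1 and Cyp17a1 and so could not call them. The gene with an unadjusted p under 0.05 in edgeR was Mrap. Its log2 difference (dex effect in germ cells minus that in somatic cells) was -2.59 (95% interval -4.46 to -0.72, adjusted p = 0.172, edgeR with BH). In DESeq2 it was -2.62 (unadjusted p = 0.00505). The rise of Mrap in somatic cells was thus not shown to differ from the dex effect in germ cells, where at most 10 counts were read. For Mc2r the fitted difference was 0.50 (95% interval -0.71 to 1.71), a value that rests on 2 counts in germ cells and that depends on how zeros are handled. For Hsd3b1 the difference was 0.79 (95% interval -0.13 to 1.70, adjusted p = 0.412).

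In which fraction were these genes expressed without treatment? Among the saline libraries 7 of the 10 genes were tested, where 42.9% of all 17941 genes tested were lower in germ cells. Mc2r, Cyp11a1 and Cyp17a1 were at or under the floor in all germ cell libraries and passed the filter only through the somatic libraries, so that a lower value in germ cells was fixed by the filter and their calls are no support. Of the other 4 genes, Hsd3b1, Fdxr and Star were called lower in germ cells and Fdx1 was not. Mc2r, with 0 counts in all 3 germ cell libraries, was at least 11-fold higher in somatic cells when the germ cells are set at the floor of 3 counts per library. Hsd3b1 in germ cells was at 10.9% of the somatic mean, with a log2 fold change of -3.18 (SE 0.24, adjusted p = 6.46e-09, edgeR with BH). For Cyp11a1 the log2 fold change was -4.03 (95% interval -5.52 to -2.54) and for Cyp17a1 -3.28 (95% interval -4.36 to -2.20), both from germ cell libraries with at most 3 counts. The saline germ cell range of Hsd3b1 (1.17 to 1.43 CPM) lay below its saline somatic range (10.4 to 14.7 CPM). For Mc2r, Cyp11a1 and Cyp17a1 such a separation is no result, because of the filter.

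Fdxr was lower in germ cells by a smaller step, at 12.7 ± 2.7 CPM against 35.1 ± 3.0 CPM (SD, n = 3), for a log2 fold change of -1.45 (adjusted p = 2.41e-07, edgeR with BH). Fdx1, in contrast, averaged 19.8 ± 3.5 CPM in the germ libraries and 20.0 ± 0.9 CPM in the somatic ones, with an interval of -0.31 to 0.31 on the log2 scale. Star was read at 6.01, 8.98 and 5.94 CPM in germ cells after saline, and the highest of these exceeded the lowest somatic value of 8.37 CPM. Its log2 fold change of -0.46 was called (adjusted p = 0.0451, edgeR with BH), but the call was lost without germ saline replicate 1 or 3 (adjusted p = 0.130 and 0.140), without somatic saline replicate 1 or 2 (adjusted p = 0.126 and 0.0767), with RLE size factors (adjusted p = 0.0599) and in DESeq2 (adjusted p = 0.0995).

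Markers of somatic cells gave a scale for these germ cell levels. In saline germ cells the summed markers of 7 somatic lists were at 0.399% (erythroid) to 15% (endothelial) of their somatic sums, whereas the mesonephros list was at 51.7% and the Leydig and adrenal list at 51.6%. The chromaffin list was higher in germ cells, at 1300% of its somatic sum (16.3 to 23.3 against 1.01 to 2.00 CPM). Hsd3b1 was at 10.9%, Fdxr at 36.1%, Star at 71.9% and Fdx1 at 99% of the somatic mean. Of the genes at or near the floor in germ cells, Mc2r was at 0%, Cyp11a1 at 5.51%, Cyp17a1 at 9.84% and Mrap at 48.3%. Cyp21a1 was at 242%, and Cyp11b1 had 4, 2 and 0 counts in germ cells against 0 in every saline somatic library. How much of the germ cell signal came from somatic RNA in the sorted germ cells was not tested.

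The order of levels per gene length was similar in the 2 somatic groups apart from the receptor pair. After saline it ran Fdxr (12.2 ± 1.0 FPKM), Hsd3b1 (6.31 ± 1.23), Fdx1 (6.24 ± 0.27), Star (2.29 ± 0.31), Mc2r (1.23 ± 0.53), Cyp17a1 (0.819 ± 0.294), Mrap (0.374 ± 0.155), Cyp11a1 (0.290 ± 0.188), Cyp21a1 (0.0566 ± 0.0283) and Cyp11b1 (0). Neighbours whose libraries overlapped were Hsd3b1 and Fdx1, Mc2r and Cyp17a1, and Mrap and Cyp11a1. After dex, Mc2r (5.68 FPKM) overlapped Hsd3b1 (5.85 ± 2.42 FPKM) and lay above Star (2.59 ± 0.60 FPKM) in every library, and Mrap (2.06 FPKM) overlapped Star. In germ cells the order was Fdx1 (6.43 ± 1.16 FPKM), Fdxr (4.57 ± 1.00), Star (1.71 ± 0.41) and Hsd3b1 (0.718 ± 0.079) after saline, with the remaining 6 genes at a mean of at most 0.188 FPKM. Fdx1 and Fdxr overlapped there, and after dex the same 4 genes led in the same order with no overlap between neighbours.

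**Figure D3:**
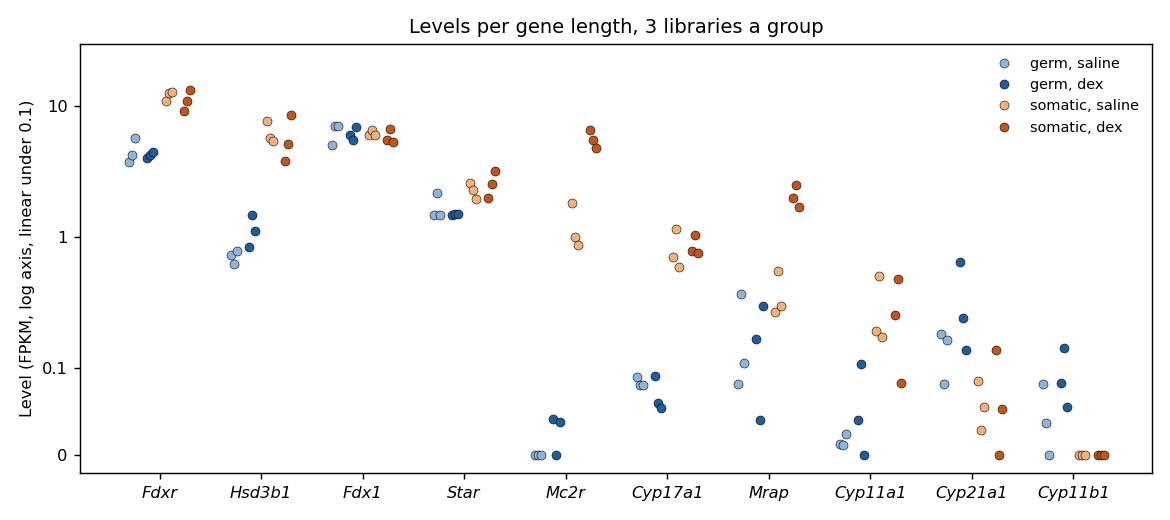
Level per gene length (vertical axis, FPKM, logarithmic above 0.1 and linear below) of the 10 genes in order of their saline somatic mean; each point is a library and colours give the 4 groups. Mc2r and Mrap are the 2 genes whose somatic dex points (4.81 to 6.63 and 1.69 to 2.50 FPKM) lie apart from the saline points.

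The nuclear receptor genes that govern steroidogenic cells did not rise with the receptor pair. Nr5a1 (SF-1), the master regulator of steroidogenic enzyme genes, was at 67.6, 71.9 and 84.0 CPM in somatic cells after saline and 55.2, 54.5 and 84.0 CPM after dex (log2 fold change -0.21, adjusted p = 0.440, edgeR with BH). Without dex replicate 3 it was called lower (-0.44, adjusted p = 0.00326). In that fit 8 of the 10 pregranulosa markers were called lower too, against 1 with all libraries. Over all genes, single-library omissions gave 754 to 1881 somatic calls, against 1354 with all libraries. The share of all genes called lower without dex replicate 3 is not given here, so the marker count is a description only. Nr0b1 (DAX-1), a repressor of NR5A1, was at 9.88, 9.67 and 8.56 CPM after saline and 6.58, 7.10 and 10.4 CPM after dex (log2 fold change -0.23, adjusted p = 0.565). Lhcgr, the luteinizing hormone receptor gene, had 29 to 33 counts after saline and 20 to 56 after dex, with a log2 fold change of 0.10 (adjusted p = 0.925).

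Of the other named steroidogenic genes, Insl3, Hsd3b6, Cyp19a1 and Cyp11b2 had at most 10 counts in any somatic library. Insl3, the insulin-like peptide gene of Leydig and theca cells, had 5, 3 and 4 counts after saline and 1, 2 and 1 after dex. Hsd3b6 had 1, 10 and 9 counts and 1, 4 and 0 counts, the aromatase gene Cyp19a1 0, 3 and 0 and 6, 0 and 7 counts, and Cyp11b2 0 counts in all 6 libraries. In germ cells Hsd3b6 had 2 to 6 counts after saline and 6 to 24 after dex, and Cyp11b2 0 counts after saline and 1, 8 and 1 after dex. Insl3 had at most 2 counts and Cyp19a1 at most 8 counts there, and Lhcgr had at most 7, whereas Nr5a1 and Nr0b1 reached at most 6.01 and 1.6 CPM. None of Insl3, Hsd3b6, Cyp19a1 and Cyp11b2 was tested in the dex comparison of somatic cells.

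Among the other receptors and the cAMP pathway downstream of MC2R, 22 of 26 genes were tested in somatic cells. Of these, 0 were higher and 1 was lower after dex, beside 4.81% and 3.36% of all genes tested. The median log2 fold change of the 22 genes was -0.04, beside 0.00014 for all genes tested. The gene that fell was Pde4b, a phosphodiesterase that degrades cAMP, from 10.1, 11.7 and 11.2 CPM to 7.01, 7.27 and 6.24 CPM, a log2 fold change of -0.69 (adjusted p = 0.0150, edgeR with BH). Its call was lost without saline replicate 2 or 3 (adjusted p = 0.0775 and 0.0632). The protein kinase A catalytic subunit gene Prkaca was not called (log2 fold change -0.21, adjusted p = 0.0715).

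Of the 18 steroidogenic transcription factor and hedgehog genes, all tested, 3 rose and 1 fell in somatic cells after dex. Their median log2 fold change was -0.06. Over all genes tested, 4.81% rose and 3.36% fell. Cebpb, a cAMP- and glucocorticoid-responsive factor, rose from 33.4, 34.6 and 45.5 CPM to 82.9, 91.4 and 64.6 CPM, a log2 fold change of 1.07 (SE 0.13, adjusted p = 0.000205, edgeR with BH). Gli1, a target and effector of hedgehog signalling, had 0.72 (adjusted p = 0.00731) and Ptch1, the hedgehog receptor, 0.36 (adjusted p = 0.0139). Gli1 lost its call without saline replicate 3 (adjusted p = 0.0591). Ptch1 lost it without dex replicate 1 or saline replicate 1 or 2 (adjusted p 0.0551 to 0.0762).

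Among other steroidogenic enzyme and electron donor genes, 13 of 23 were tested. Of these, 3 rose and 0 fell (median log2 fold change 0.13), beside 4.81% and 3.36% of all genes tested. H6pd, which supplies NADPH inside the endoplasmic reticulum to 11-beta-hydroxysteroid dehydrogenase 1, rose from 67.4, 62.7 and 67.5 CPM to 102, 111 and 95 CPM (log2 fold change 0.64, SE 0.07, adjusted p = 0.000108, edgeR with BH). Hsd17b11, a lipid droplet short-chain dehydrogenase gene, had 0.35 (adjusted p = 0.0168), a call lost without dex replicate 2 or saline replicate 1 or 3 (adjusted p 0.0756 to 0.0895). Por, which passes electrons to microsomal P450 enzymes including CYP17A1 and CYP21A1, had 0.27 (adjusted p = 0.0481). That call was lost without dex replicate 1 or 2 or saline replicate 1 or 2 (adjusted p 0.0522 to 0.232) and with RLE size factors (adjusted p = 0.0520). Hsd11b1 and Hsd11b2, whose enzymes interconvert active and inactive glucocorticoid, had log2 fold changes of 0.64 (adjusted p = 0.623) and -0.0044 (adjusted p = 0.990).

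Cholesterol, the substrate of the pathway, is made in the cell or taken up. Of 20 cholesterol synthesis genes, all tested, 7 fell, 0 rose and 13 were not called in somatic cells after dex. Over all genes tested, 3.36% fell and 4.81% rose. In the list, 18 of 20 had a negative log2 fold change (median -0.33). Leaving out single libraries gave 4 to 7 genes lower, the fewest, 4, without saline replicate 2, and a median between -0.35 and -0.24. Hmgcs1, the HMG-CoA synthase gene, fell from 162, 164 and 193 CPM to 126, 114 and 133 CPM, a log2 fold change of -0.48 (SE 0.08, adjusted p = 0.00178, edgeR with BH). Sqle, the squalene epoxidase gene, had -0.44 (adjusted p = 0.00597) and Insig1, a sterol-responsive regulator of the pathway, -0.40 (adjusted p = 0.0132), lost without saline replicate 2 (adjusted p = 0.0915). Mvd, the mevalonate diphosphate decarboxylase gene, had -0.43 (adjusted p = 0.0457), but that call was lost on leaving out any 1 of the 6 libraries (adjusted p 0.0513 to 0.192).

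Of 19 genes for cholesterol uptake, storage and transport, 1 rose, 3 fell and 15 were not called (median log2 fold change -0.09). Over all genes tested, 4.81% rose and 3.36% fell. Apoe, the apolipoprotein E gene, fell from 167, 200 and 231 CPM to 95.4, 135 and 154 CPM (log2 fold change -0.64, adjusted p = 0.0167, edgeR with BH), a call lost without saline replicate 2 or 3 (adjusted p = 0.0544 and 0.0978) and in DESeq2 (adjusted p = 0.0669). Apoe is also a macrophage transcript, and the macrophage marker sum was lower in the same libraries, as given above. The part of macrophage RNA in the Apoe values was not tested. Stard4, a cytosolic sterol carrier gene, had -0.43 (adjusted p = 0.0355). Stard4 lost its call without dex replicate 2 or any 1 of the saline replicates (adjusted p 0.0623 to 0.150). Abca1, the cholesterol efflux pump gene, was higher (0.31, adjusted p = 0.0177), lost without dex replicate 2 or saline replicate 2 or 3 (adjusted p 0.0573 to 0.0935).

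Of the 13 genes that share ferredoxin with the steroidogenic P450 enzymes, 12 were tested. Of these, 2 rose (median log2 fold change -0.0082), beside 4.81% of all genes tested. Iscu, the scaffold of iron-sulfur cluster assembly, rose from 29.4, 26.1 and 27.4 CPM to 44.0, 44.2 and 40.3 CPM, a log2 fold change of 0.63 (SE 0.09, adjusted p = 0.000556, edgeR with BH). Isca1, a later factor of the same assembly, had 0.34 (adjusted p = 0.0146), lost without dex replicate 1 or 2 or saline replicate 2 or 3 (adjusted p 0.0583 to 0.0929). The calls of Cebpb, H6pd, Hmgcs1, Sqle and Iscu were kept in all 6 single-library omissions. In germ cells 0 genes of any of these 6 lists were called by edgeR or by DESeq2, where edgeR called 0.208% of all genes tested. An unadjusted p under 0.05 in edgeR was found for 1 to 3 genes a list. Gata4, a zinc finger factor of gonadal somatic cells, was called higher in germ cells by edgeR with no low-count filter (log2 fold change 0.87, adjusted p = 0.000794). It was also called higher by edgeR without germ dex replicate 1 (1.27, adjusted p = 0.0452). The pregranulosa marker sum was 41.4 CPM in that library, against 131 and 108 CPM in germ dex replicates 2 and 3. The part of somatic RNA in the Gata4 values was not tested.

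**Figure D4:**
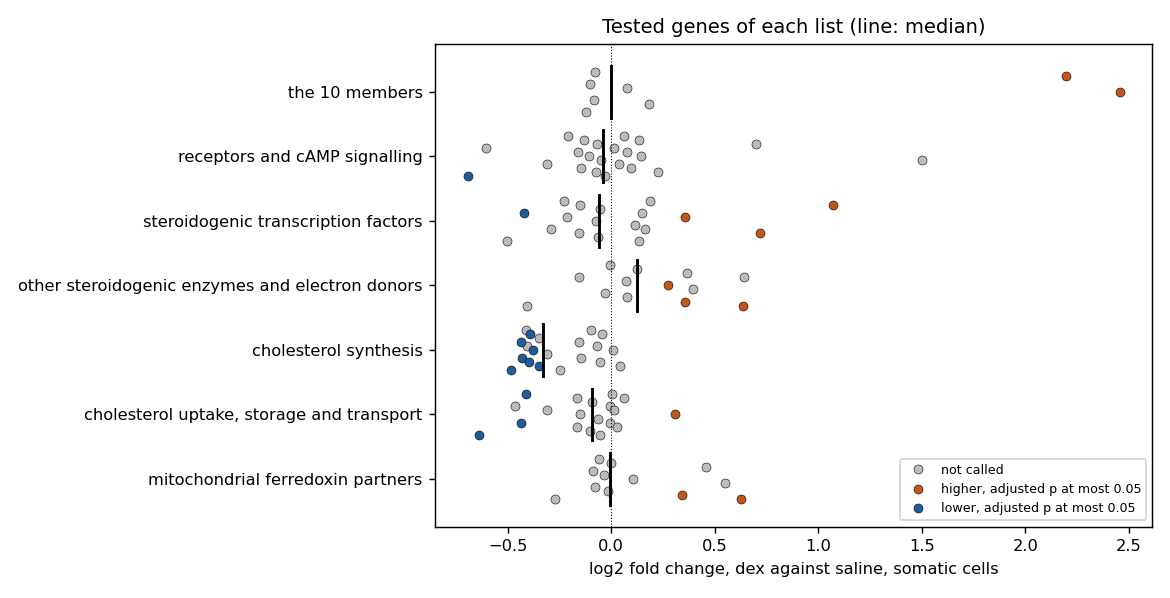
Log2 fold change of dex against saline in somatic cells (horizontal axis) of each tested gene of the 10 members and the 6 pathway lists; orange and blue points were called higher and lower by edgeR, grey points were not called, and black lines are medians. Mc2r and Mrap (2.20 and 2.46) are the points furthest to the right, and most points of the cholesterol synthesis list (median -0.33) lie left of 0.

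The genes whose levels ran most like each member over the 12 libraries were found by Pearson's r of log2 CPM, as a description. For Mc2r they were Ms4a4d (r = 0.9975), C530044C16Rik (0.995) and Abcg2 (0.9943). As many as 4888 of 19389 genes had an r of at least 0.9 with Mc2r, all over the same 12 libraries with their split into germ and somatic fractions. For Mrap, which was near the floor in germ cells and saline somatic cells alike, 31 genes reached 0.9, led by Eva1c (0.9598), Gm45047 (0.9537) and Xdh (0.948). Star was most like Gm13408, Gm14303 and Rps13-ps2 (0.9757 to 0.9559), of which the last is a pseudogene whose reads may be shared with its parent gene. Cyp11a1 was nearest to Pth2r (0.9497), Rhbdl1 (0.9471) and Gm37310 (0.947), Cyp17a1 to E430024I08Rik, Gm12198 and Dhx57 (0.9943 to 0.9927), Hsd3b1 to Gabrb1 (0.9898) and Lmx1a (0.9886), and Fdxr was close to Frmd6 (0.9917) and Sdsl (0.9913). For Fdx1 no gene reached 0.9, the nearest being Psmc3 (0.7985), Rab26 (0.7895) and Gm20900 (0.778).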

How the data were processed

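RNA-seq of germ and somatic cells sorted from E15.5 mouse ovaries, 3 libraries in each of 4 groups taken from the sample labels, was analysed. The authors aligned poly-A RNA read pairs to mm10 with HISAT2 2.0.5 and deposited raw counts per gene from featureCounts 1.5.0-p3, with GRCm38 coordinates. The strand setting and the handling of multi-mapping reads were not given in the sources used here. FPKM values were deposited by the authors from the same counts, and were used only to compare levels between genes. The authors' own DESeq2 1.20.0 tables hold fold changes and p-values of dex against saline and were not used.

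Counts were tested with edgeR 4.0.16 in R 4.3.3 (glmQLFit and glmQLFTest, TMM, filterByExpr), on the whole table, with BH adjustment over all genes tested and a threshold of 0.05. Each pairwise test used the 6 libraries of its 2 groups, and the test of the difference of dex effects used all 12. Alternatives were RLE size factors, no low-count filter, DESeq2 1.42.0, a replicate block and omission of each library. The code was tested on simulated data. CPM used TMM-scaled totals. Intervals of fold changes are 95% intervals. Floors of 3 counts cover counting error only, since reads carried no molecular identifiers. The p-values measure the spread between libraries pooled over litters.

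The 10 genes and the lists were chosen with earlier results of these data known. All 10 genes are named. From each pathway list, genes called in a dex test with a mean of at least 1 CPM are named, at most 4 per list and test by absolute log2 fold change. Nr5a1, Nr0b1, Lhcgr, Hsd3b6, Cyp11b2, Cyp19a1 and Insl3 are always named, and the 3 genes of highest r are named per member. A few genes that these rules select are not reported here. Other genes named from the lists (Mrap2, Mc1r, Mc3r, Mc4r, Mc5r, Fshr, Prkaca, Hsd11b1, Hsd11b2, Hsd17b3, Gata4, Dazl and the other single markers) were chosen after their values were seen. Promoter windows are from RefSeq (GRCm38.p6), and 4 of the 10 genes matched.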

Additional observations from a re-analysis of the deposited data

Results flagged for a closer look

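In the test of the difference of the dex effect between germ and somatic cells, 4 genes of the pathway lists and 0 of the 8 tested members were called. A call in this test was itself a reason for naming a gene. The 4 were 1 of 18 tested transcription factor genes, 1 of 15 enzyme genes and 2 of 13 ferredoxin partner genes. In the receptor, cholesterol synthesis and cholesterol uptake lists 0 of 23, 20 and 19 tested genes were called. Across all 19390 genes tested, 1.62% were called. The log2 difference (dex effect in germ cells minus that in somatic cells) was -0.71 for Iscu, the iron-sulfur scaffold gene (SE 0.12, adjusted p = 0.00683, edgeR with BH), and its call was kept in all 12 single-library omissions. For H6pd, the NADPH supplier of the endoplasmic reticulum, it was -0.65 (SE 0.13, adjusted p = 0.0133), lost without germ saline replicate 3 (adjusted p = 0.0552). For Isca1, a second iron-sulfur assembly gene, it was -0.54 (SE 0.12, adjusted p = 0.0353), with the call kept in 4 of 12 omissions and lost without germ dex replicate 2 or 3, germ saline replicate 1 or 3, somatic dex replicate 1 or 2, or somatic saline replicate 2 or 3 (adjusted p up to 0.119). For Cited2, a transcriptional coactivator gene needed for adrenal development, it was 0.49 (SE 0.11, adjusted p = 0.0281), with the call kept in 7 of 12 omissions and lost without germ dex replicate 2, germ saline replicate 1, somatic dex replicate 2, or somatic saline replicate 2 or 3 (adjusted p up to 0.0869). Cited2 was at 17.6, 19.0 and 19.3 CPM in germ cells after saline and 25.4, 25.6 and 24.5 CPM after dex, and at 112, 119 and 128 CPM and 121, 111 and 113 CPM in somatic cells.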

How the results depend on the processing

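The number of members called did not change in any alternative within somatic cells (2), within germ cells (0) or for the difference (0). Between saline fractions it was 5 or 6, the loss being Star. For the difference, DESeq2 gave no adjusted p for Mrap, Cyp11a1 and Cyp17a1. These genes and Mc2r were at or near the floor in germ cells, so their lack of a call is limited by depth in every setting. Counts over all genes moved more. In germ cells 35 genes were called, 420 with no low-count filter, 158 by DESeq2 and 17 to 81 on leaving out single libraries. In somatic cells the 1354 calls became 754 to 1881. For the difference, 314 calls became 727 with no filter, 620 by DESeq2 and 143 to 384 on omissions. With the replicate block the log2 fold changes of Mc2r and Mrap in somatic cells were 2.24 and 2.48. Deviations of same-numbered dex and saline libraries had r from -0.00971 to 0.132, and those of germ and somatic libraries 0.0543 to 0.0991, so the numbers were not read as pairs, although in 6 of 6 cases germ and somatic libraries of a treatment were closest to their own number. On omissions, 2 to 4 transcription factor genes and 1 to 3 enzyme genes were higher, and 0 to 3 uptake genes were lower in somatic cells. The block lost the call of Mvd (adjusted p = 0.0620) and changed no other call among the named genes.

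Among the members and named genes, signs turned only for values that were not called. On leaving out single libraries the log2 fold change in germ cells ranged -0.18 to 0.037 for Fdx1, -0.28 to 0.047 for Star and -0.20 to 0.094 for Fdxr, in somatic cells -0.48 to 0.12 for Hsd3b1, -0.27 to 0.00081 for Fdxr, -0.11 to 0.41 for Cyp17a1, -0.0048 to 0.34 for Star, -0.78 to 0.60 for Cyp11a1 and -0.39 to 0.36 for Lhcgr, for the difference -0.097 to 0.16 for Fdx1 and -0.091 to 0.22 for Fdxr, and between fractions -0.081 to 0.14 for Fdx1. The difference of the dex effect for Mc2r was -0.28 in DESeq2, and the Fdx1 log2 fold change of germ against somatic cells was 0.036 with RLE size factors and 0.031 in DESeq2. Members at 3 or fewer counts in a group are limited by depth.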
